A study of Mus musculus with 12 samples.

Results

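The response of the colon to dextran sulfate sodium (DSS) that 2 ATF6 knockout mouse lines had in common was measured on 8 of the 12 arrays of the series. The members were the 4 knockout arrays titled DSS and the 4 knockout arrays titled UT (untreated), with genotype as a term of the fit. All mice were male and of strain C57BL/6J, and the RNA came from whole colon. The 4 groups were untreated ATF6aKO, ATF6aKO given 3% DSS in the drinking water for 3 days, untreated ATF6bKO and ATF6bKO given the same DSS, with 2 arrays each. The 4 wild-type arrays were left out of the fit because their titles and their treatment labels contradict each other. The sources used here state neither the age of the mice nor how the alleles were made, and they do not say that a group's arrays are separate animals. The p-values therefore reflect the spread between arrays alone, part or all of which may be technical.

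DSS is a sulfated polymer that injures the colonic epithelium and lets luminal bacteria reach the mucosa, and it is widely used to model colitis. The injury is followed by an influx of neutrophils and monocytes, while the crypts, whose base holds Lgr5-expressing stem cells kept by Wnt signals from the stroma, lose and then rebuild their dividing cells. ATF6a and ATF6b, encoded by Atf6 and Atf6b, sit in the membrane of the endoplasmic reticulum (ER), and under a load of unfolded protein they are cut to free a fragment that switches on chaperone genes.

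Levels are log2 signals relative to the 75th percentile of the array, and a change is the DSS level minus the UT level. Between 65.5% and 70.6% of the probes were well above background on the 8 arrays. The targeted genes followed the labels. Atf6 was at -3.22 and -3.04 on the UT arrays and -3.08 and -3.23 on the DSS arrays of ATF6aKO, against 0.74 to 1.22 in ATF6bKO, a difference of -4.14 (SE 0.115, adjusted p = 5.5e-05). Atf6b was between -0.14 and 0.08 in ATF6aKO and at -7.64, -6.49, -4.14 and -7.62 in ATF6bKO, where 1 of the 4 arrays, DSS replicate 1, was well above background (adjusted p = 0.0123). With normexp background correction, an alternative to the scanner's own subtraction, the difference was -3.13 for Atf6 and 2.5 for Atf6b, against 6.43. The Atf6 probe was well above background on every ATF6aKO array. No protein was measured, and the sources used here do not locate either probe with respect to the deletion.

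Markers of colonic epithelium were present on every array. The 17 measured goblet cell markers had a mean level of 3.86 to 4.19, and the 23 measured markers of absorptive colonocytes 2.63 to 3.36. The ATF6bKO DSS arrays stood apart in markers of squamous epithelium, the lining of the anal canal and skin. The mean level of 15 such markers was -4.04 to -3.28 on the 6 other knockout arrays, -1.70 on ATF6bKO DSS replicate 1 and 2.09 on replicate 2. Krt4, a defining keratin of that epithelium, was at -8.19 to -7.42 on those 6 arrays, none of them well above background, and at -4.98 and -0.51 on the ATF6bKO DSS arrays. Of the 15 markers 2 rose over both knockouts, 4 without ATF6bKO DSS replicate 2 and 1 without ATF6aKO UT replicate 2 or ATF6bKO UT replicate 1. The adipocyte list reached 2.12 on ATF6aKO DSS replicate 2, against -0.01 to 1.20 on the other arrays. Whole colon was assayed, so fewer cells of a type and less RNA per cell cannot be told apart in any result below.

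Of 21928 genes tested with limma, 3185 (14.5%) rose with DSS over both knockouts and 3776 (17.2%) fell at an adjusted p under 0.05. The counts of list members that rose or fell below are to be read against these shares. Without ATF6aKO DSS replicate 1 the counts over all genes were 1852 and 2347. With normexp background correction 4567 rose and 3422 fell, so the share of risers among the genes that passed was 57.2% in place of 45.8%. A change of at least 1 log2 unit was seen in 1940 of these genes, and all 1940 had the same sign in both knockouts. The pooled change is the mean of the 2 knockout changes, so a gene with opposite changes could hardly pass. That agreement was therefore largely set by the rule and is not a result about the genes. A gene was called shared when, in addition, both DSS arrays lay on the same side of both UT arrays within each knockout. The shared genes numbered 970 that rose (4.42% of those tested) and 878 that fell (4.0%), 1848 in all (8.43%), and the other 92 had overlapping arrays in at least 1 knockout. With normexp, the shared genes numbered 362 and 283. Of the 207 named genes that passed, 95 had a fold change that normexp moved by over 1.5 times, each to a smaller size, and the mean over probes moved 5. The log2 changes with normexp are therefore given below for the genes so moved whose changes are described. For others pointed to in the text or figures, normexp gave -0.41 for Greb1 against -3.81 and 2.16 for Gem against 2.77. It gave 0.59 for Wnt5a against 1.52, 0.35 for Rspo2 against 1.07 and 0.36 for Cep295nl against 1.0. Just inside the limit of 1 log2 unit were Cep295nl (1.0) and Crem (1.0), and just outside it Ccdc77 (-1.0) and Bnc2 (1.0). A symbol could be given to 664 of the shared genes that rose and 575 of those that fell.

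The shared changes were larger in ATF6bKO for most genes. The median rise was 1.29 in ATF6aKO and 1.63 in ATF6bKO, and 662 of 970 genes (68.2%) had the larger rise in ATF6bKO. The median fall was -1.29 and -1.59, and 625 of 878 genes (71.2%) fell further in ATF6bKO. Of all 6961 genes that passed, 59.6% had the larger change in ATF6bKO. For most shared genes with a second probe, that probe gave the same answer. Of 361 further probes of 314 genes, 356 (98.6%) had the same sign, 324 (89.8%) also passed, and 0 passed in the opposite direction. These probes read the same arrays on which the genes were chosen, so the agreement bears on the probes and not on the samples. No share over all genes tested was taken.

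Without any limit of size, both DSS arrays lay above both UT arrays in each knockout for 3900 genes (17.8%), below them for 5017 (22.9%), and on opposite sides in the 2 knockouts for 1199 (5.47%).

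**Figure D1:**
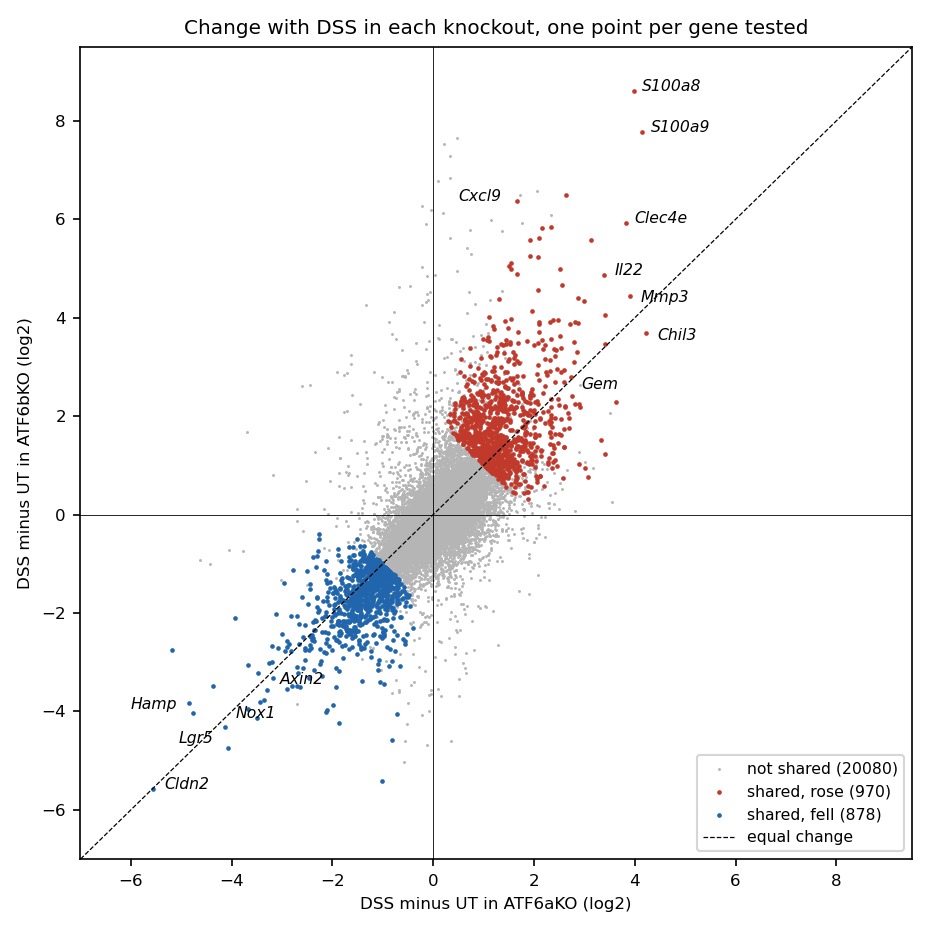
Change with DSS in ATF6aKO (horizontal axis, log2) against ATF6bKO (vertical axis, log2) for the 21928 genes tested, with the 970 shared genes that rose in red, the 878 that fell in blue and all others in grey. Cldn2 and Gem lie near the dashed line of equal change, and S100a8, S100a9 and Cxcl9 lie above it.

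A stricter reading asked for a call in each knockout by its own contrast. The contrasts share no arrays but share the estimate of the spread. In ATF6aKO 1609 genes rose (7.34%) and 1653 fell (7.54%), and in ATF6bKO 2052 rose (9.36%) and 2888 fell (13.2%). By that reading 872 genes (3.98%) rose in both, 1161 (5.29%) fell in both and 15 (0.0684%) passed in opposite directions. These counts depended on single arrays. The count of genes that rose in both was 16 without ATF6aKO UT replicate 2, 29 without ATF6aKO DSS replicate 1, 81 without ATF6aKO UT replicate 1, 279 without ATF6bKO DSS replicate 2, 390 without ATF6bKO DSS replicate 1, 492 without ATF6aKO DSS replicate 2 and 565 without ATF6bKO UT replicate 1. The genes that fell in both numbered 40, 54, 89, 449, 602 and 402 for the first 6 of those omissions. The shared rule cannot be compared with this reading over the omissions. With 1 array left in a group, its condition within a knockout is easier to meet, so newly admitted genes offset lost ones.

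Among the genes that rose most in both knockouts were those of neutrophils and of proteases that cut the extracellular matrix. Mmp3, which encodes stromelysin-1, was at -2.37 and -2.36 on the ATF6aKO UT arrays, -2.52 and -3.02 on the ATF6bKO UT arrays, 1.68 and 1.40 with DSS in ATF6aKO and 1.81 and 1.52 with DSS in ATF6bKO. The 4 DSS values lay within 0.41 log2 units of one another and far above every UT value. Mmp3 rose by 4.17 (SE 0.172, adjusted p = 0.000183), or 18-fold, with 3.90 in ATF6aKO and 4.44 in ATF6bKO. Of 22 measured metalloproteinases and their inhibitors, 18 rose, 12 of them shared, with a median change of 1.16 against -0.006 for all genes. Mmp10, a second stromelysin, rose by 2.99 and 4.34 in the 2 knockouts. Mmp8, the collagenase stored by neutrophils, rose by 2.72 and 3.86, and the macrophage elastase Mmp12 by 2.40 and 3.36. The probes of Mmp8 and Mmp12 were not above background on any UT array, so their rises are bounds of at least 2.38-fold and at least 1.88-fold. With normexp the change was 3.40 for Mmp3, 2.33 for Mmp10, 0.60 for Mmp8 and 0.57 for Mmp12. Such a bound sets the mean of the higher group against the lowest signal called well above background on the arrays of the dim group. It applies to the scanner's own subtraction and is not a lower limit under normexp. The normexp changes of Mmp8 and Mmp12 fell short of their bounds, as did those of every gene given such a bound below.

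S100a9, a subunit of the calprotectin dimer that neutrophils carry, was at -3.16 and -3.49 on the ATF6aKO UT arrays and 0.95 and 0.69 with DSS. In ATF6bKO it was at -3.70 and -3.46 untreated and 4.22 and 4.19 with DSS. The UT arrays of both lines were alike, and the DSS arrays of ATF6bKO were the highest. S100a9 rose by 5.96 (SE 0.690, adjusted p = 0.00192), and its partner S100a8 by 6.29 (SE 0.916, adjusted p = 0.00363, at least 55.3-fold). Both proteins are also made by squamous epithelium, whose markers were higher on the ATF6bKO DSS arrays, and the part of those cells in the result was not tested. In ATF6aKO alone, where the mean squamous level was -3.52 and -3.28 with DSS, S100a9 changed by 4.15 and S100a8 by 3.97. Normexp gave 4.75 for S100a9 and 3.16 for S100a8 over both knockouts, and without ATF6bKO UT replicate 1 S100a8 changed by 5.53. These S100a8 values lie below its bound of 55.3-fold.

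Of 18 measured neutrophil markers, 17 rose and 16 were shared, with a median change of 1.59 in ATF6aKO and 3.03 in ATF6bKO. Probes that entered only through their DSS arrays, such as that of Clec4e, were in effect selected for being high there. With the strict filter, which asked for a signal well above background on all 8 arrays, 8 of the markers rose. Clec4e, a pattern receptor of myeloid cells, was at -7.59 to -7.03 on the ATF6aKO UT arrays and -7.97 to -7.63 in ATF6bKO UT, none of them above background. It reached -3.09 and -3.89 with DSS in ATF6aKO and -1.99 and -1.76 in ATF6bKO, a rise of at least 8.83-fold (adjusted p = 0.00109). Its change with normexp was 1.20, against 4.87. Slfn4 was the one neutrophil marker that fell, by 1.27 (SE 0.204, adjusted p = 0.00497). Its levels were -1.30 and -1.55 untreated and -2.85 and -2.28 with DSS in ATF6aKO, and -0.27 and -0.35 untreated and -1.33 and -2.10 with DSS in ATF6bKO, without overlap within either line.

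Monocyte and macrophage markers rose in 18 of 20 cases, 13 of them shared. Chil3, a chitinase-like protein of macrophages, was at -3.0, -4.94, -4.32 and -3.60 on the UT arrays and 0.75, -0.22, -0.52 and -0.05 on the DSS arrays, in the order ATF6aKO replicates 1 and 2 and ATF6bKO replicates 1 and 2. It rose by 3.96 (SE 0.455, adjusted p = 0.00191), with 4.23 in ATF6aKO and 3.68 in ATF6bKO. Acod1, the itaconate-making enzyme of activated macrophages, rose by 2.34 and 5.84, and the Fc receptor Fcgr1 by 1.28 and 2.78. Without ATF6aKO UT replicate 2 the change of Acod1 over both was 4.95 in place of 4.09. Under normexp Chil3 changed by 2.55, Acod1 by 1.72, Gzma by 1.35, Gzmb by 1.22 and Cd79a by 0.45. Of 14 mast cell and eosinophil markers 10 rose and 1 fell: the mast cell proteases Mcpt1 (1.22 and 1.31), Mcpt2 (1.22 and 1.40) and Cpa3 (1.46 and 1.09) rose, and the stem cell factor receptor Kit (-0.83 and -0.56) fell. Of 17 T and NK cell markers 14 rose, with Gzma at 2.08 and 3.49 and Gzmb at 1.44 and 2.74. That count was 7 without ATF6bKO DSS replicate 2, 8 without ATF6aKO DSS replicate 1 and 9 without ATF6bKO DSS replicate 1. In each knockout alone 4 and 16 of the 17 passed. The B and plasma cell list had a median change of 0.94, and 1 of its 14 measured members passed, Cd79a, whose call was lost in 6 of the 8 omissions: the count was 0 without ATF6aKO DSS replicate 1, ATF6aKO UT replicate 1 or ATF6bKO DSS replicate 1 and 2 without ATF6aKO DSS replicate 2.

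**Figure D2:**
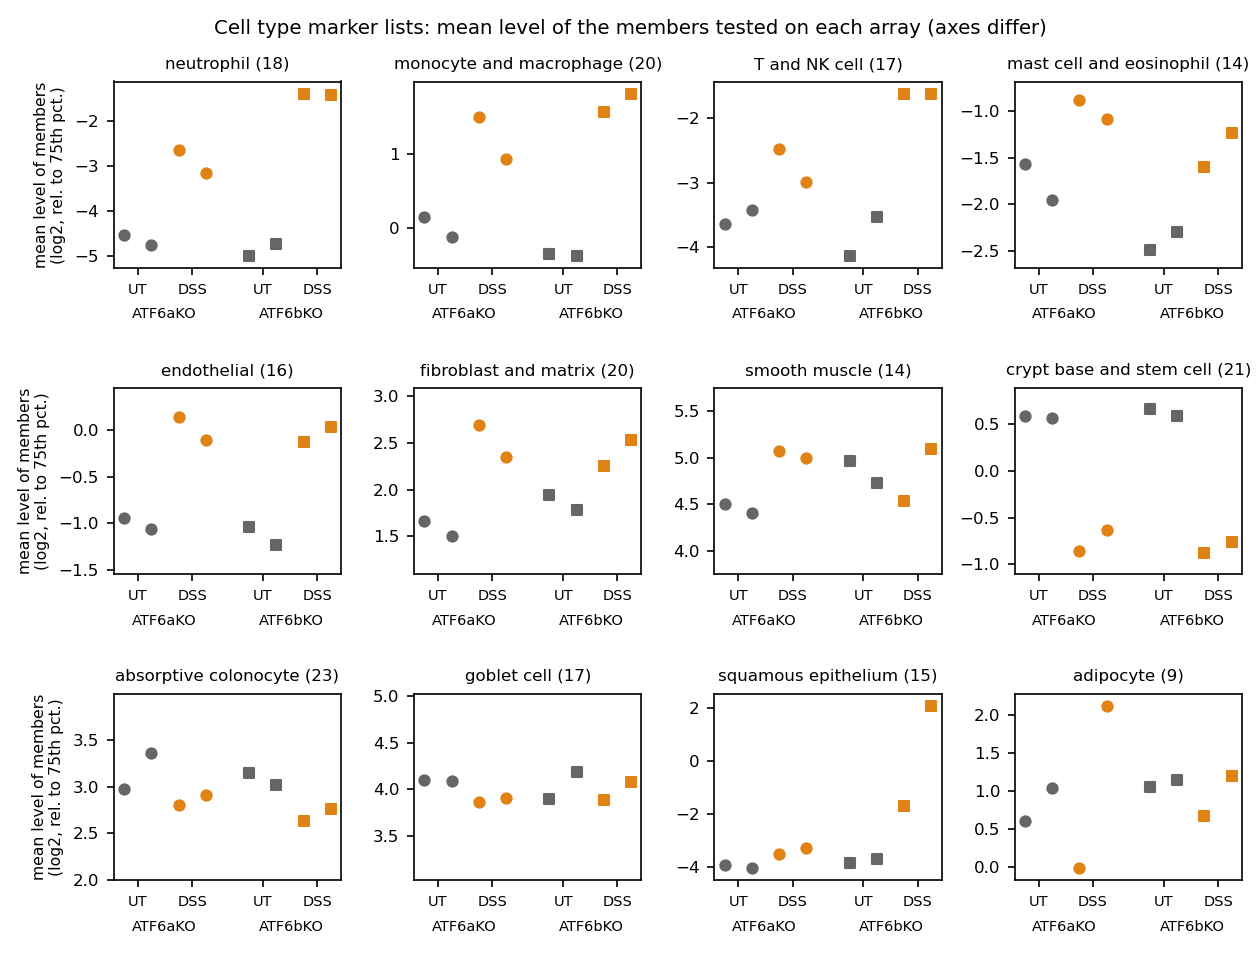
Mean level of the measured members of 12 cell type marker lists (vertical axes, log2 relative to the 75th percentile, with ranges that differ) on each knockout array, circles for ATF6aKO and squares for ATF6bKO, grey for UT and orange for DSS. The neutrophil list was between -4.99 and -4.53 untreated and between -3.14 and -1.39 with DSS, and the squamous list reached 2.09 on ATF6bKO DSS replicate 2.

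Transcripts of chemokines, the signals that attract leukocytes, also rose, and whether they drew in cells was not tested. Of 30 measured chemokines 24 rose and 20 were shared, with medians of 1.30 and 2.46 in the 2 knockouts. Cxcl5, a ligand of the neutrophil receptor Cxcr2, was at -3.79, -4.08, -3.23 and -3.84 on the UT arrays of ATF6aKO and ATF6bKO, and at -0.90, -1.29, -0.07 and -0.39 on the DSS arrays. The lowest DSS value lay 1.94 log2 units above the highest UT value, and Cxcl5 rose by 3.07 (SE 0.193, adjusted p = 0.000567), or 8.42-fold. Cxcl1, a second ligand of Cxcr2, rose by 3.36 (SE 0.276, adjusted p = 0.000902), with 2.81 and 3.91. In the chemokine receptor list, which also holds formyl peptide receptors, 14 of 22 rose, including Ccr7, the lymph node homing receptor (2.55 and 4.67). The formyl peptide receptors Fpr2 (2.10 and 3.91) and Fpr1 (1.20 and 2.99), which sense bacterial peptides, rose too. Both are also in the neutrophil list above. Normexp lowered the change to 2.01 for Cxcl5, 1.80 for Cxcl1, 1.84 for Ccr7, 0.87 for Fpr2 and 0.53 for Fpr1, and the mean over probes of Fpr2 was 2.34 against 3.0. The receptor count was 8 without ATF6aKO DSS replicate 1 or ATF6bKO DSS replicate 2 and 9 without ATF6aKO UT replicate 1 or ATF6bKO DSS replicate 1.

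Of 19 measured inflammatory cytokines 11 rose and 1 fell, and 6 rose with the strict filter. Il22, which acts on epithelium, was at -8.37, -7.95, -7.78 and -8.07 on the UT arrays of ATF6aKO and ATF6bKO, none above background, and at -5.30, -4.25, -2.57 and -3.52 on the DSS arrays, all above it. Il22 rose by 4.13 (SE 0.403, adjusted p = 0.00128), a bound of at least 3.77-fold. Il11 was at -3.41, -4.00, -3.29 and -3.17 untreated and at -1.01, -0.80, 0.26 and 0.31 with DSS, and rose by 3.16 (SE 0.193, adjusted p = 0.00054), or 8.91-fold. The nearest UT and DSS arrays of Il11 were 2.15 log2 units apart. Il6 rose by 2.52 and 4.99 (at least 11.7-fold), Tnf by 2.48 and 3.96 and Ifng by 2.08 and 5.22 (at least 4.76-fold). With normexp these changes over both knockouts were 0.82 for Il22, 2.10 for Il11, 1.38 for Il6, 1.61 for Tnf and 1.20 for Ifng, and the mean over probes of Il22 was 3.17. Il15, which sustains lymphocytes, was the one that fell, by 1.23 (SE 0.152, adjusted p = 0.00224), with -1.27 in ATF6aKO and -1.19 in ATF6bKO. Normexp put Il15 at -0.64.

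Receptors, antagonists and inhibitors of these pathways rose as well. Of 30 cytokine receptors and antagonists 18 rose, among them the decoy receptor Il1r2 (1.59 and 2.78) and the antagonist Il18bp (1.59 and 3.30). Of 22 NF-kB inhibitors and feedback genes 11 rose. Socs3, the feedback inhibitor of STAT3 signalling, was at 1.47, 0.89, 1.26 and 0.94 untreated and at 3.75, 3.79, 3.93 and 3.64 with DSS. The 4 DSS arrays were within 0.29 log2 units of one another, and the rise was 2.64 (SE 0.154, adjusted p = 0.000502), or 6.24-fold, with 2.59 in ATF6aKO and 2.69 in ATF6bKO. Socs1, the related inhibitor that acts on interferon signalling, rose by 0.78 and 2.38. Of 21 innate pattern receptors 11 rose, including the C-type lectins Clec4d (2.09 and 3.86) and Clec4n (1.35 and 2.27) and the scavenger receptor Msr1 (1.41 and 2.27). By normexp the change over both knockouts was 1.14 for Il1r2, 1.55 for Clec4d and 0.92 for Msr1, against 2.18, 2.98 and 1.84.

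Interferon-stimulated genes rose in 21 of 29 cases, 18 of them shared, with medians of 0.62 in ATF6aKO and 2.23 in ATF6bKO. The count was 8 without ATF6bKO DSS replicate 1 and 9 without ATF6bKO DSS replicate 2. Cxcl10 was at -1.38 and -1.82 untreated and -0.19 and 0.31 with DSS in ATF6aKO, against -2.68 and -2.59 untreated and 2.53 and 1.97 with DSS in ATF6bKO. Within each knockout the DSS arrays lay above the UT arrays, and Cxcl10 rose by 3.27 (SE 0.630, adjusted p = 0.00948). Iigp1, an interferon-inducible GTPase, changed by 1.55 and 5.11 and rose by 3.33 over both (adjusted p = 0.0131). Cxcl9 rose by 4.02 (SE 0.977, adjusted p = 0.0207), and did not pass without ATF6bKO DSS replicate 1 (adjusted p = 0.0551) or replicate 2 (adjusted p = 0.0594). Its change was 4.66 without ATF6aKO DSS replicate 2, 4.70 without ATF6aKO UT replicate 1 and 3.20 without ATF6bKO UT replicate 1. With normexp Cxcl9 changed by 2.0 and Cxcl10 by 2.5. The difference between the knockouts did not pass for Cxcl10 (adjusted p = 0.136), Iigp1 (adjusted p = 0.157) or Cxcl9 (adjusted p = 0.224).

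Promoter letters of genes that rose are shown for 3 of these genes, taken from the RefSeq promoter table of assembly GRCm38.p6 as the 250 bases before the gene start, written 5′ to 3′ along the gene. Mmp3 (chr9:7445572-7445821, plus strand) and Chil3 (chr3:106167565-106167814, minus strand) are the shared risers with the largest smaller change whose window holds a motif searched for inflammatory genes, and Cxcl10 (chr5:92348890-92349139, minus strand) was added after its values were seen. Capitals mark every match on either strand to the kappaB motif, AP-1 (TGANTCA), STAT (TTCNNNGAA), the interferon response element (GAAA, any 2 bases, GAAA), TCF (spelled CTTTGAT, with CTTTGAA as its variant), the cell cycle element CHR (TTTGAA, with TTCGAA as its variant), the CCAAT box or E2F (TTTGGCGC, with TTTCCCGC as its variant). The TCF variant contains the first CHR spelling, so it is also a CHR match.
Mmp3: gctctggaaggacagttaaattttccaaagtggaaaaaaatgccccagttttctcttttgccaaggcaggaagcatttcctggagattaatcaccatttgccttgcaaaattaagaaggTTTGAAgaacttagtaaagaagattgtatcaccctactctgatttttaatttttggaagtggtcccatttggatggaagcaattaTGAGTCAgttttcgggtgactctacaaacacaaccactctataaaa
Chil3: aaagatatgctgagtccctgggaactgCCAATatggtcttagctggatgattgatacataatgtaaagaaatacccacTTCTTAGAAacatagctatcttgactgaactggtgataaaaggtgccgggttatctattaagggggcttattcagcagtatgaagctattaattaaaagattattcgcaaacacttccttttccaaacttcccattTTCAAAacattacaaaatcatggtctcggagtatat
Cxcl10: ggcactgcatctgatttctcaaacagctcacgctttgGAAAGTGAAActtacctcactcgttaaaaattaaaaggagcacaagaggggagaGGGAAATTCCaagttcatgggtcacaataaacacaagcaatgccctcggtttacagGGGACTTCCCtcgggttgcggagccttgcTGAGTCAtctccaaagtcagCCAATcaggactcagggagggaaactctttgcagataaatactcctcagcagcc

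The capitals in Mmp3 are a CHR and an AP-1 match, those in Chil3 a CCAAT, a STAT and a CHR match, and those in Cxcl10 an interferon response element, a pair of kappaB matches, an AP-1 and a CCAAT match. Over whole windows, which run from 250 bases before to 50 after the gene start, shares were counted for genes with a symbol and a window. There were 591 windows for 484 of 664 shared risers, 551 for 462 of 575 shared fallers and 14175 for 11125 of 13971 genes tested. A gene can have several windows. AP-1 letters were in 14.7% of the windows of risers, 5.63% of fallers and 5.71% of all tested. STAT letters were in 11.8%, 5.08% and 6.94%, the interferon response element in 8.8%, 1.81% and 3.13%, and the kappaB motif in 7.45%, 5.81% and 5.38%. The TATA box (TATAAA) was in 18.6%, 7.99% and 8.92%. In the 28 windows of measured interferon-stimulated genes the interferon response element was in 46.4%, and in the 23 of chemokines the kappaB motif was in 26.1%. A match is a description of letters and not a bound site.

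Complement and coagulation genes rose in 21 of 28 cases. F10, which encodes coagulation factor X, was at -2.98, -4.35, -3.58 and -3.55 untreated and at -0.43, -1.16, 0.35 and 0.29 with DSS, so the lowest DSS array was 1.82 log2 units above the highest UT array. F10 rose by 3.38 (SE 0.355, adjusted p = 0.00155). The complement receptor C3ar1 rose by 1.55 and 2.16 and component C2 by 1.14 and 2.31. Endothelial markers rose in 15 of 16 cases, with medians of 0.89 and 0.81 in the 2 knockouts, and those that rose included molecules that capture leukocytes from the blood: Selp, or P-selectin (2.32 and 2.92), Vcam1 (1.32 and 2.35), the mucosal addressin Madcam1 (1.77 and 1.40) and the venular chemokine receptor Ackr1 (1.85 and 1.31). Normexp changes were 2.20 for F10, 1.11 for C3ar1, 1.58 for Selp and 0.66 for Madcam1.

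Genes tied to repair of the epithelium moved in both lines. Of 24 genes of the regenerative epithelium list 14 rose, 10 of them shared, and 1 fell. Ly6a, which marks injured epithelium and is also made by lymphocytes and endothelium, was at 4.51, 4.35, 4.78 and 4.79 untreated and at 6.84, 6.60, 6.60 and 6.78 with DSS. Its 4 DSS values fell within 0.24 log2 units, and it rose by 2.10 (SE 0.119, adjusted p = 0.000502), or 4.28-fold. Among ligands of the EGF receptor family Nrg1 (2.90 and 2.25), Ereg (3.41 and 1.23), Areg (2.39 and 1.36) and Hbegf (1.69 and 0.62) rose, and their brake Lrig1 fell (-0.90 and -0.81). In all, 6 of the 18 genes of that family rose and 1 fell, or 2 without ATF6bKO DSS replicate 2 or ATF6bKO UT replicate 1. Fibroblast and matrix markers rose in 15 of 20 cases, 3 of them shared, including the platelet-derived growth factor receptors Pdgfra (1.11 and 1.13) and Pdgfrb (0.91 and 0.79) and podoplanin, Pdpn (1.48 and 1.05). Nrg1 changed by 1.45, Ereg by 0.78 and Pdpn by 0.58 with normexp. Smooth muscle markers passed in 0 of 14 cases and in 8 of 14 without ATF6bKO DSS replicate 1, when all 8 rose. Without ATF6bKO UT replicate 1, 1 of the 14 rose.

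**Figure D3:**
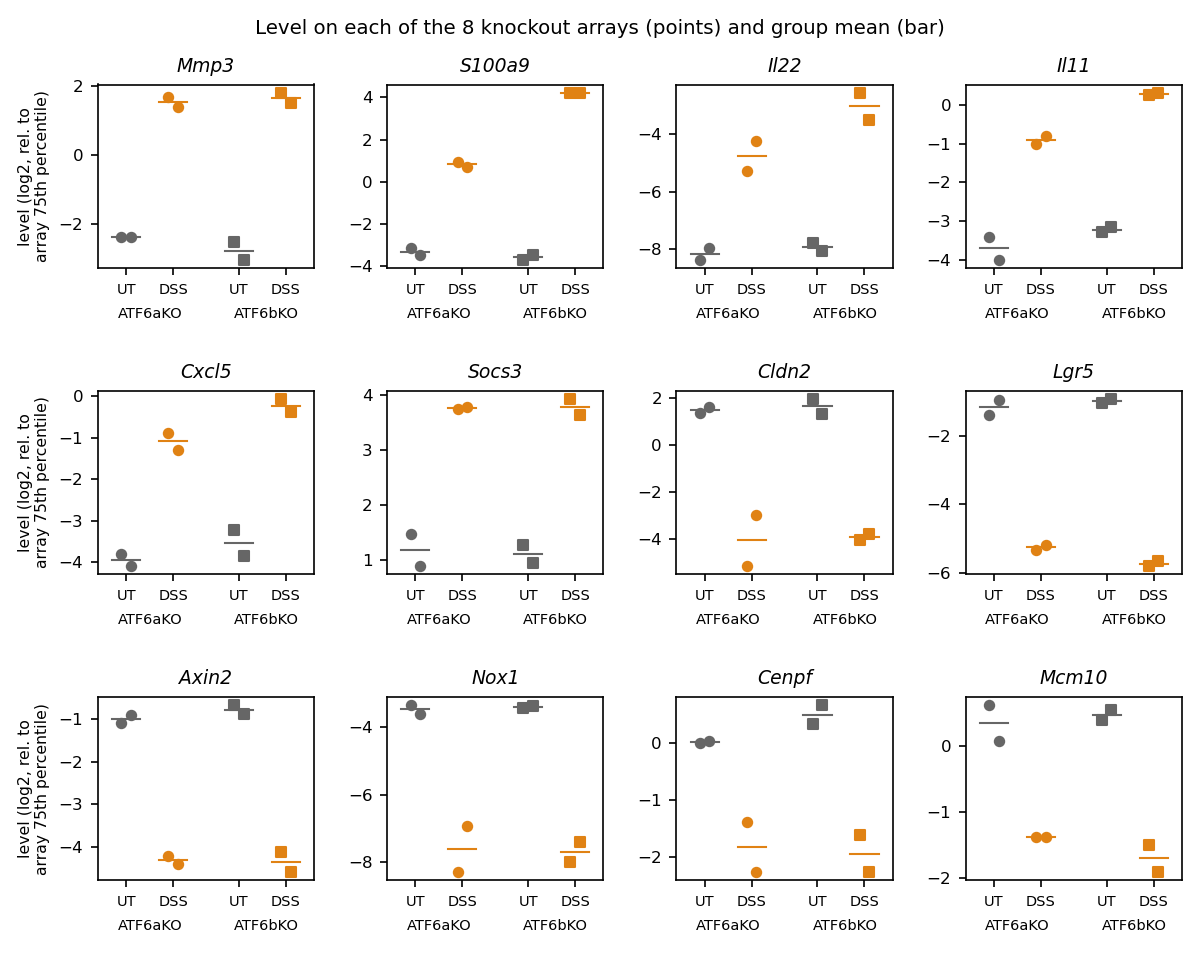
Level of 12 shared genes (vertical axes, log2 relative to the 75th percentile) on each knockout array, with points for arrays, a bar for the mean of the 2 arrays, circles for ATF6aKO, squares for ATF6bKO, grey for UT and orange for DSS. Groups are apart in every panel: Mmp3, Il22, Il11, Cxcl5 and Socs3 rose in both lines, S100a9 reached 4.22 in ATF6bKO, and Cldn2, Lgr5, Axin2, Nox1, Cenpf and Mcm10 fell in both.

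Genes of the crypt base fell in both lines. Lgr5, the R-spondin receptor of crypt base stem cells, was at -1.40, -0.96, -1.04 and -0.93 on the UT arrays of ATF6aKO and ATF6bKO and at -5.31, -5.18, -5.79 and -5.65 on the DSS arrays. The groups were 3.78 log2 units apart at their nearest arrays, and the change of Lgr5 was -4.40 (SE 0.171, adjusted p = 0.000183), a fall of at least 20.1-fold, with -4.07 in ATF6aKO and -4.73 in ATF6bKO. Axin2, the feedback inhibitor induced by Wnt signals, was at -1.09, -0.92, -0.68 and -0.89 untreated and at -4.22, -4.39, -4.12 and -4.58 with DSS. Axin2 fell by 3.43 (SE 0.137, adjusted p = 0.000183), or 10.8-fold. Nox1, the superoxide-producing oxidase of colonic crypts, was between -3.61 and -3.34 untreated and between -8.30 and -6.92 with DSS. No DSS array was above background, and the fall was at least 5.22-fold (adjusted p = 0.000734). The Nox1 probe entered only through its UT arrays and was in effect selected for being high there. The same holds for other fallers with no DSS array above background. Normexp brought these changes to -1.77 for Lgr5, -1.70 for Axin2 and -0.52 for Nox1, against -4.40, -3.43 and -4.22. Within the list of crypt base and stem cell genes, 17 of 21 measured fell, 11 of them shared, with a median of -1.36. Cdca7 (-2.09 and -2.40) and the ephrin receptor Ephb3 (-1.69 and -1.84) had nearly equal changes in the knockouts.

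Wnt genes did not all move in 1 direction. Of 22 Wnt target genes 14 fell and 2 rose. The count of risers was 0 without ATF6aKO DSS replicate 1, ATF6aKO UT replicate 2 or ATF6bKO DSS replicate 2, and 1 without ATF6aKO UT replicate 1 or either ATF6bKO UT array. Ligands went the other way: of 12 Wnt ligands and R-spondins 7 rose, 4 of them shared. Wnt10a was at -5.41, -4.91, -5.31 and -4.57 untreated and at -2.79, -3.18, -2.98 and -1.97 with DSS. It rose by 2.32 (SE 0.279, adjusted p = 0.00207), a call that was lost with all 12 arrays in the fit (adjusted p = 0.0602). The stromal R-spondin Rspo3 rose by 1.30 and 0.96. The ligand count was 3 without ATF6aKO DSS replicate 1 or ATF6aKO UT replicate 1. It was 4 without either other ATF6aKO array and 4 with the strict filter. Among receptors and secreted inhibitors Fzd9 fell by 3.15 (SE 0.373, adjusted p = 0.00204), and the secreted inhibitors Sfrp1 (1.46 and 1.21) and Sfrp2 (1.26 and 0.93) rose. In that list 8 of 26 rose and 3 fell, against 14.5% and 17.2% of all genes tested. The change with normexp was 0.95 for Wnt10a and -1.38 for Fzd9.

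Hedgehog and BMP genes were also split. Gli1 and Hhip, which hedgehog signals induce in the stroma, fell: Hhip was at -2.13, -2.20, -2.17 and -2.20 untreated and at -3.75, -3.44, -3.85 and -3.51 with DSS, and fell by 1.46 (SE 0.114, adjusted p = 0.000825). The UT values of Hhip spanned 0.07 log2 units and the DSS values 0.42. Hhip changed by -0.61 with normexp. Gli1 was lower with DSS by at least 1.90-fold, with a change of -1.68 (SE 0.144, adjusted p = 0.000963), but with normexp its change was 0.02. The ligand Dhh rose by 1.30 (SE 0.117, adjusted p = 0.00106), with 1.26 and 1.34. Grem1, the stromal antagonist of BMP signals, rose by 1.64 (SE 0.154, adjusted p = 0.00116), and Smad6, the intracellular inhibitor that BMP signals induce, fell by 1.30 (SE 0.110, adjusted p = 0.000932). Of 31 BMP and hedgehog genes 8 rose and 8 fell, against 14.5% and 17.2% of all genes tested. The count that fell was 5 without ATF6aKO DSS replicate 1. In the Notch list 7 of 19 fell and 4 rose, against 17.2% and 14.5% of all genes tested. The secretory lineage factor Atoh1 (-1.46 and -1.02) and Hes6 (-1.04 and -1.11) were the shared fallers. The count of risers was 1 without ATF6aKO DSS replicate 1 and 2 without ATF6aKO UT replicate 1 or ATF6bKO DSS replicate 2.

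**Figure D4:**
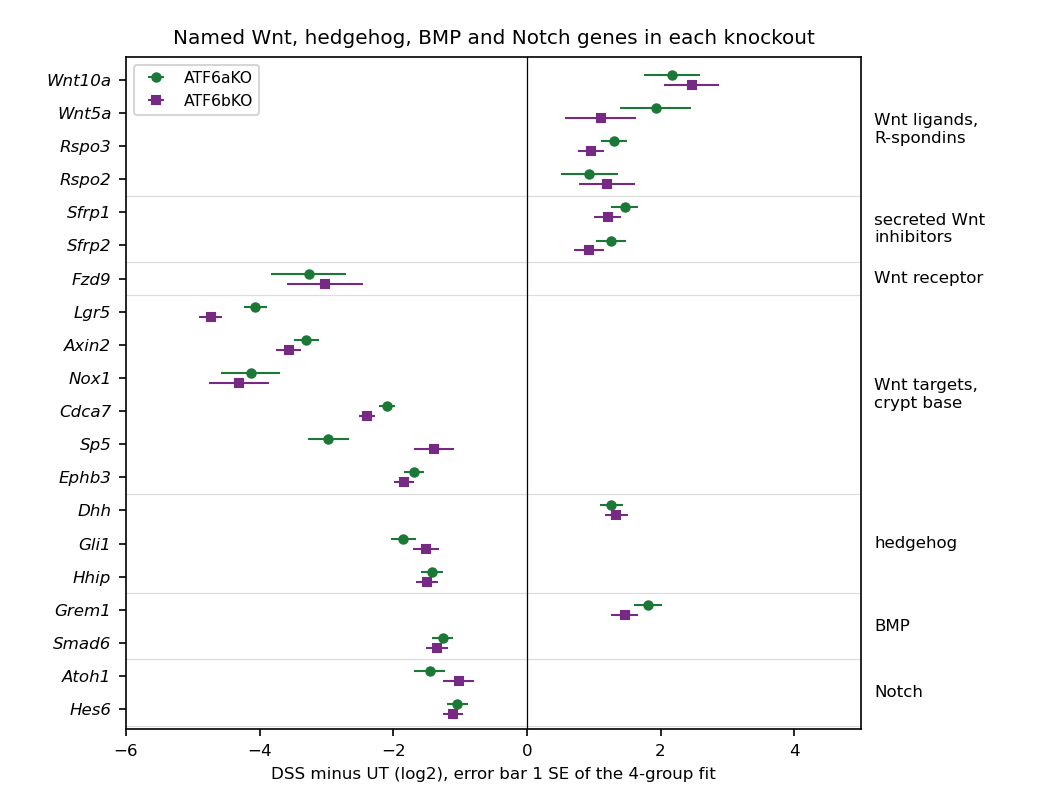
DSS minus UT (horizontal axis, log2, error bars of 1 SE from the fit with 4 group means) in ATF6aKO (green circles) and ATF6bKO (purple squares) for 20 named genes grouped by role. Wnt ligands, R-spondins and secreted Wnt inhibitors lie right of 0 in both lines, and Lgr5, Axin2, Nox1 and the other genes of the crypt base and Wnt response lie left of it. Wnt5a and Rspo2 did not pass in 5 of the 8 omissions of 1 array each.

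Genes of dividing cells fell almost without exception. Of 34 measured genes of mitosis 33 fell and all 33 were shared, with a median of -1.76, and of 33 genes of DNA replication 33 fell, 22 of them shared, with a median of -1.28. Cenpf, a kinetochore protein, was at 0.01, 0.04, 0.33 and 0.67 untreated and at -1.39, -2.26, -1.62 and -2.26 with DSS, and fell by 2.15 (SE 0.250, adjusted p = 0.00194), or 4.43-fold. Mcm10, which helps start replication, was at 0.62, 0.07, 0.40 and 0.54 untreated and at -1.37, -1.37, -1.49 and -1.90 with DSS, and fell by 1.94 (SE 0.171, adjusted p = 0.00101). The nearest UT and DSS arrays were 1.40 log2 units apart for Cenpf and 1.44 for Mcm10. Cyclin B2, Ccnb2, fell by 2.21 and 2.10, the maintenance methylation factor Uhrf1 by 1.71 and 2.36, and the checkpoint kinase Ttk by 2.21 and 3.27 (at least 3.28-fold). Ttk changed by -0.23 with normexp (adjusted p = 0.0753). Cenpf changed by -1.55 with it. The spindle checkpoint kinase Bub1 was the exception, with 0.78 (SE 0.239, adjusted p = 0.0442). Its probes disagreed: the mean over them fell by 0.66 (adjusted p = 0.0269), and the rise was lost in 6 of 8 omissions, all but those of ATF6aKO DSS replicate 2 and ATF6aKO UT replicate 1.

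The promoters of these genes shared letters known from cell cycle genes. Of 28 windows of measured mitosis genes 78.6% held a CHR and 82.1% a CCAAT box, against 14.4% and 37.3% in the windows of all genes tested and 26.7% and 49.0% in those of all shared fallers. Among the 34 windows of DNA replication genes 29.4% held an E2F motif, against 2.47% of all tested and 5.81% of shared fallers. Shared risers held a CHR in 20.3%, a CCAAT box in 33.2% and an E2F motif in 1.35% of windows. The promoters of Hamp (chr7:30944030-30944279, minus strand) and Greb1 (chr12:16757240-16757489, minus strand, 1 of 2 windows of that gene in the table) are those of the shared fallers with the largest smaller change that hold a TCF, CHR, CCAAT or E2F match, and Ttk (chr9:83834439-83834688, plus strand) and Ccnb2 (chr9:70421555-70421804, minus strand) were added after their values were seen. Capitals mark the same motifs as in the promoters of risers, in 250 bases of assembly GRCm38.p6.
Hamp: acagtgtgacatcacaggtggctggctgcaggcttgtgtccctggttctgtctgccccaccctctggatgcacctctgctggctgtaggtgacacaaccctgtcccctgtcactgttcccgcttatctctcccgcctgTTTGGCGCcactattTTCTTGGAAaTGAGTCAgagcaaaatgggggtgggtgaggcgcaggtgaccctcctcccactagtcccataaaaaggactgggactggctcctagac
Greb1: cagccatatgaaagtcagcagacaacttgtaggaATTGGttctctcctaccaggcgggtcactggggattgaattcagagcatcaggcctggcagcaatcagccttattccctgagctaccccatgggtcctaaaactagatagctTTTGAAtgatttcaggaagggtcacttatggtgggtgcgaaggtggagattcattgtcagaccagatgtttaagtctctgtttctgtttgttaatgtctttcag
Ttk: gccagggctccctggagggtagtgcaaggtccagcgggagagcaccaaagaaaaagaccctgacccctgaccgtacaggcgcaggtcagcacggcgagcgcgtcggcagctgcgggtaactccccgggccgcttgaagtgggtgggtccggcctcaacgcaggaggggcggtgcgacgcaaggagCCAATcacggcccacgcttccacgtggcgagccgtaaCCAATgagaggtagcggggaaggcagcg
Ccnb2: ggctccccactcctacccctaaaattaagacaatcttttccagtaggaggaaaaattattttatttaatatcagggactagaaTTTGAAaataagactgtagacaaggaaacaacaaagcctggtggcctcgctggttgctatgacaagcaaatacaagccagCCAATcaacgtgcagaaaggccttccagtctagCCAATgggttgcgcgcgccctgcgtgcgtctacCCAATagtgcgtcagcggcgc

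Hamp holds E2F, STAT and AP-1 letters, Greb1 a CCAAT box on the other strand and a CHR, Ttk a pair of CCAAT boxes, and Ccnb2 a CHR and 3 CCAAT boxes.

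Barrier and transport genes of the surface and crypt epithelium changed in part. Cldn2, the claudin that forms cation pores in leaky crypt junctions, fell further than any other named gene. It was at 1.37, 1.64, 1.98 and 1.35 untreated and at -5.13, -2.96, -4.05 and -3.76 with DSS, with all 8 arrays above background. Cldn2 fell by 5.56 (SE 0.435, adjusted p = 0.000825), or 47.2-fold, with -5.55 in ATF6aKO and -5.57 in ATF6bKO. Cldn15, a second pore-forming claudin, fell by 2.06 and 1.84, while the sealing claudins Cldn8 (1.71 and 0.99) and Cldn4 (0.86 and 1.20) rose. Over 19 junction genes 5 rose and 4 fell, against 14.5% and 17.2% of all genes tested, so that list did not lean to either side. For Cldn2 the normexp change was -3.88.

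Of 32 ion channels and transporters 13 fell, 11 of them shared. Cftr, the chloride channel of crypts, was at 0.34, 0.69, 1.03 and 1.0 untreated and at -1.72, -0.75, -1.42 and -1.85 with DSS, and fell by 2.20 (SE 0.278, adjusted p = 0.00236), or 4.60-fold. Subunits of the epithelial sodium channel fell, Scnn1g by 2.35 in each knockout and Scnn1b by 1.69 and 1.58. With normexp they changed by -0.99 and -0.71. The potassium channel subunit Kcne2 fell by 5.18 and 2.76 (at least 3.92-fold), although with normexp its change was -0.40 (adjusted p = 0.0896). Among 23 absorptive colonocyte markers 7 fell and 1 rose, with 4 that fell without ATF6aKO DSS replicate 1: the guanylate cyclase ligand Guca2b fell (-1.22 and -1.28) and the bile acid exporter subunit Slc51b rose (0.67 and 1.87). Of 17 goblet cell markers 3 fell, near the 17.2% of all genes tested, among them Atoh1 and the factor Spdef (-0.90 and -0.55). Enteroendocrine genes leaned upward with 10 of 18 that rose, 4 of them shared. The peptide hormone genes Gcg (1.30 and 1.31), Pyy (1.37 and 1.09) and Tac1 (1.55 and 1.20) had nearly equal rises in the knockouts, while the progenitor factor Neurog3 fell (-1.15 and -0.74). Neurog3 was 1 of 2 fallers, and with normexp its change was -0.05 (adjusted p = 0.663). The count of fallers was 1 without any of 5 arrays: ATF6aKO DSS replicate 1, ATF6aKO UT replicate 2, ATF6bKO DSS replicate 1 and both ATF6bKO UT arrays.

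Genes of the list of antimicrobial epithelial genes were divided, and which cells made their transcripts was not tested. Of 26 antimicrobial genes 9 rose and 5 fell, against 14.5% and 17.2% of all genes tested. With the strict filter 5 rose. The iron-binding protein Lcn2, which is also in the neutrophil list above, was at -3.79, -4.29, -4.12 and -4.50 untreated. With DSS it was at -2.20, -2.54, -1.70 and -1.55, and it rose by 2.18 (SE 0.244, adjusted p = 0.00182). The nitric oxide synthase Nos2 rose by 1.09 and 3.61 (at least 3.27-fold). Under normexp Lcn2 changed by 1.04 and Nos2 by 0.63. Reg4, a lectin of deep crypt secretory cells, was at 7.78, 7.67, 7.46 and 8.03 untreated and at 5.65, 6.02, 5.24 and 5.92 with DSS, and fell by 2.03 (SE 0.201, adjusted p = 0.00134). The UT and DSS arrays of Reg4 were 1.44 log2 units apart at the nearest.

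Of 19 measured iron handling genes 8 rose and 4 fell, and of 16 genes of the urea cycle and of polyamines 3 rose and 3 fell, against 14.5% and 17.2% of all genes tested. The count of iron handling genes that fell was 2 with no filter or without any 1 of the knockout arrays other than ATF6aKO DSS replicate 2. The count of urea cycle and polyamine genes that fell was 5 with normexp and 1 with the strict filter. Hamp, which encodes the iron hormone hepcidin, was at -2.35, -2.50, -2.97 and -2.14 untreated and at -6.90, -7.48, -5.62 and -7.55 with DSS, where 1 of 4 arrays was above background. It changed by -4.40 (SE 0.438, adjusted p = 0.00137), a fall of at least 9.86-fold. Its near-identical copy Hamp2 fell by 1.96 (adjusted p = 0.0469) and did not pass in any of the 8 omissions, and whether the probes share signal was not tested. The urea cycle enzyme Otc fell by 4.37 and 3.48 (adjusted p = 0.00181), and Nags, which makes the activator of that cycle, by 2.13 and 4.0 (at least 4.17-fold). Mlxipl, the carbohydrate response factor ChREBP, was at 0.84, 0.54, 1.31 and 1.27 untreated and at -2.80, -2.18, -2.19 and -1.86 with DSS. It fell by 3.25 (SE 0.162, adjusted p = 0.00039), or 9.51-fold, with all arrays above background and the groups 2.40 log2 units apart. Normexp changes were -0.91 for Hamp, -1.24 for Hamp2, -1.28 for Otc, -0.34 for Nags and -2.56 for Mlxipl, and Hamp2 changed by -1.35 without ATF6aKO DSS replicate 1. Of 29 genes of xenobiotic metabolism 14 fell, among them Ugt2b35 (-2.42 and -2.44) and Cyp2d26 (-1.81 and -1.39). Ugt2b35 changed by -1.58 with normexp. That count was 5 without ATF6aKO DSS replicate 1, 7 without ATF6bKO UT replicate 1, 8 without ATF6bKO DSS replicate 1 and 9 without ATF6aKO UT replicate 2 or ATF6bKO DSS replicate 2. Of 27 genes of fatty acid and ketone body metabolism 10 fell and 0 were shared, with 3 that fell without ATF6aKO DSS replicate 1 and 5 without ATF6bKO DSS replicate 2.

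Each line is labelled as a knockout of 1 of the 2 ATF6 genes, whose proteins act on ER chaperone genes. Of 23 chaperones and folding enzymes 7 rose, 0 of them by the shared rule, against 14.5% of all genes tested. The medians were 0.10 in ATF6aKO and 0.47 in ATF6bKO. In ATF6aKO alone 1 of the 23 passed and in ATF6bKO alone 13, while the difference between the knockouts passed for 0. Hspa5, which encodes the chaperone BiP, was at 5.26 and 4.89 untreated and 5.77 and 5.78 with DSS in ATF6aKO, and at 5.67 and 5.96 untreated and 6.72 and 6.70 with DSS in ATF6bKO. Its arrays did not overlap within either line, and it rose by 0.80 (SE 0.119, adjusted p = 0.00389). Calr rose by 0.55 and 0.73. The chaperone count was 4 without ATF6aKO DSS replicate 1, ATF6bKO DSS replicate 1 or ATF6bKO DSS replicate 2. Among genes of the circadian clock Per2 fell by 2.04 (SE 0.195, adjusted p = 0.00121) and Nfil3 rose by 1.55 (SE 0.176, adjusted p = 0.00186), in a list of 19 in which 6 fell and 2 rose. The change of Per2 was -1.32 with normexp and -1.18 as the mean over its probes. The sources used here do not give the hour of sampling. The count of clock genes that fell was 3 without ATF6aKO DSS replicate 1 or ATF6aKO UT replicate 1.

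**Figure D5:**
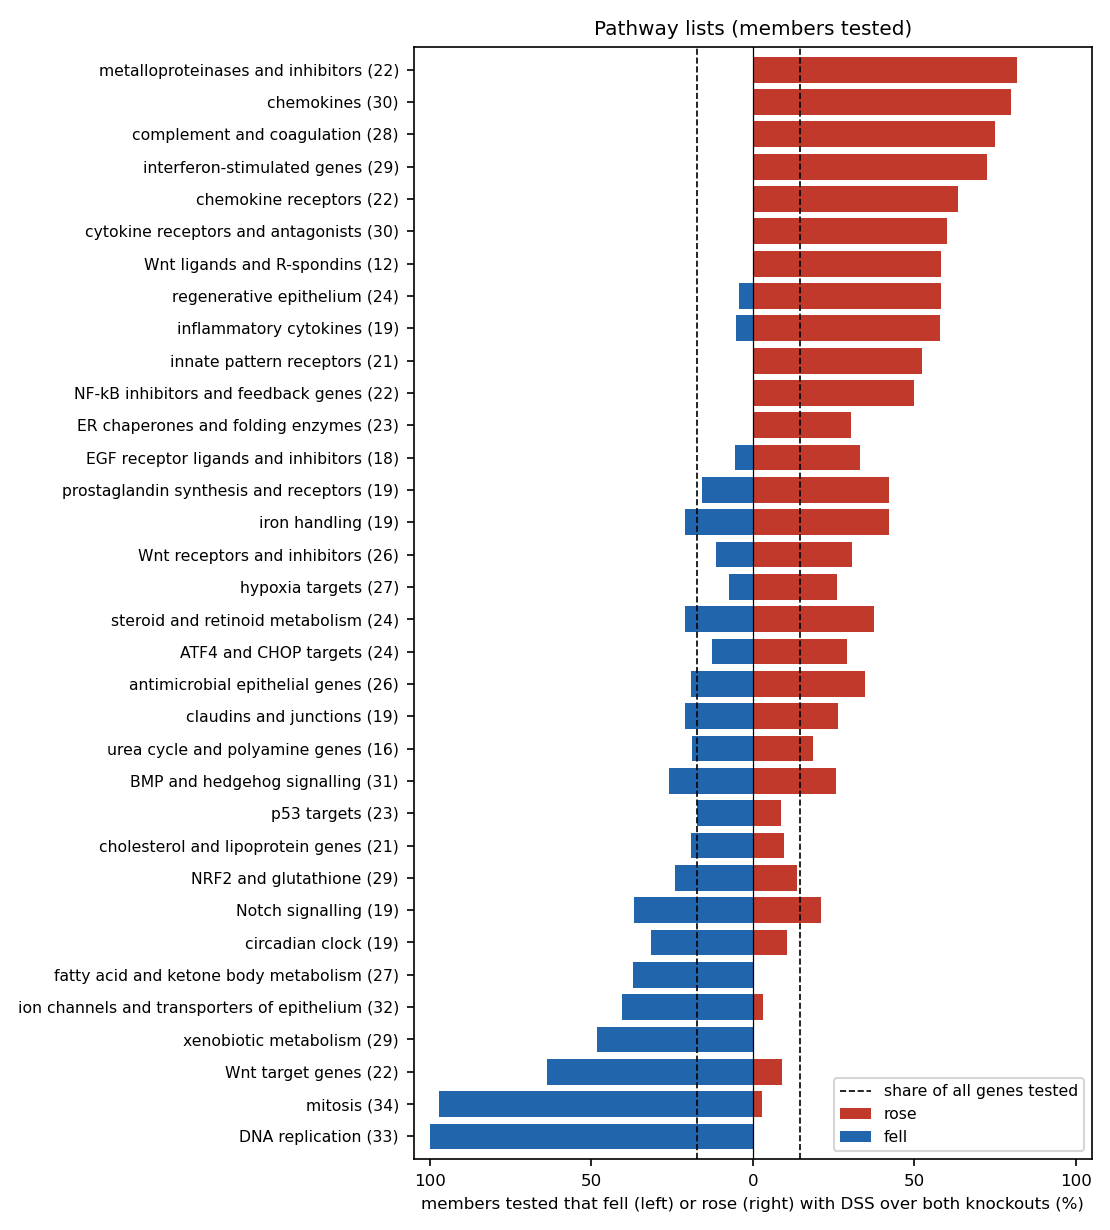
Share of the measured members of 34 pathway lists that rose (red, right) or fell (blue, left) with DSS over both knockouts (horizontal axis, percent), with the number measured in parentheses and dashed lines at the shares of all genes tested, 14.5% and 17.2%. The metalloproteinase, chemokine and complement lists reach furthest to the right, and DNA replication and mitosis furthest to the left.

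The difference between the responses of the knockouts was itself tested, in the fit with 4 group means. It passed for 8 genes (0.0365%), 5 with the more positive change in ATF6bKO, and at an unadjusted p under 0.05 for 2881 genes. Omitting any 1 ATF6aKO array left 0 genes (1825 to 2896 at an unadjusted p under 0.05), and omitting an ATF6bKO array left 3 and 6 without ATF6bKO DSS replicate 2 and UT replicate 2, 19 without ATF6bKO UT replicate 1 and 87 without ATF6bKO DSS replicate 1. S100a9 was the one gene of the 8 that has a symbol, with a difference of 3.63 (adjusted p = 0.0321) between changes of 4.15 and 7.78. It did not pass without any one of the ATF6aKO arrays, ATF6bKO DSS replicate 2 or ATF6bKO UT replicate 2 (adjusted p = 0.0521 to 0.316). Of the 8 genes, 2 were shared risers and 2 shared fallers.

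The wild-type arrays offered values from samples outside the fit, but their labels leave the direction unsettled. By their titles, 624 of the 970 shared risers (64.3%) were higher in the arrays titled DSS and 717 of the 878 shared fallers (81.7%) were lower there, with median differences of 0.33 and -0.81. By their treatment fields the same shares run the other way. Over all genes tested 49.4% were higher and 50.6% lower in the arrays titled DSS.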

How the data were processed

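Per the labels, Cy3-labelled RNA was hybridised to single-colour Agilent arrays, and the authors quantified them with Feature Extraction 10.7.1.1, per the submitters' processing notes. The deposited intensity (processed signal) is background-subtracted but unscaled between arrays, per the file headers. Control and outlier spots were left out, and log2 levels were taken relative to each array's 75th percentile. Probes well above background on both arrays of at least 1 knockout group were kept. A gene was its brightest probe, named by accession through RefSeq (GRCm38.p6, 25193 of 41174 probes, 61.2%). The arrays' number limits precision.

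Changes were fitted with limma 3.58.1 (R 4.3.3) over 8 arrays with genotype as a term, or with 4 group means, and adjusted over 21928 genes by the Benjamini-Hochberg method. The script was tested on simulated data. Each genotype lay on 1 slide, so genotype and slide are 1 term, and values within a knockout are values within a slide.

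Alternatives were normexp (offset 50, on median spot and background signals, since the files hold no mean signal), quantile and median scaling, the authors' deposited log2 value table (centred per probe, scaling between arrays unknown, with the ATF6aKO replicates exchanged against the scanner files), other filters, the mean of probes, all 12 arrays, a replicate block and omission of each array. Named genes were Atf6 and Atf6b, up to 15 shared genes each way with the largest smaller change, up to 4 per list (2 each way where both occurred) and those nearest the size limit. A few list counts name no gene. The members, 51 lists and motifs were chosen with earlier results of these data known.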

Additional observations from a re-analysis of the deposited data

Results flagged for a closer look

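The response to DSS differed between the knockouts for 8 genes by the test of the difference itself. The one of them with a symbol was S100a9, whose rise was 3.63 log2 units larger in ATF6bKO (adjusted p = 0.0321). The mean level of squamous markers was -1.70 and 2.09 on the ATF6bKO DSS arrays and -3.52 and -3.28 on the ATF6aKO DSS arrays, and its part in this difference was not tested. The S100a9 levels of the same arrays were 4.22 and 4.19 in ATF6bKO and 0.95 and 0.69 in ATF6aKO.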

How the results depend on the processing

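Of 207 named genes that passed, 167 kept the call in all 8 omissions of 1 array, and 30 lost it without ATF6aKO DSS replicate 1, the most for any array. Apart from Gli1 (0.02) and Sp5 (0.06) with normexp and Bub1 (-0.66) with the mean of probes, no named gene that passed changed sign under any alternative run. Of the 1848 shared genes, 94 changed sign with normexp and 0 under the other alternatives that refitted them. With normexp the shared genes numbered 362 that rose and 283 that fell, with no size limit 2998 and 3658, and with a limit of 2 log2 units 181 and 149. Genes called in each knockout that rose in both and fell in both numbered 331 and 472 with no filter and 421 and 633 with all 12 arrays. The test of the difference called 24 genes with normexp, 13 with median scaling, 5 with the strict filter, and 0 with no filter or all 12 arrays, where 2903 and 1793 genes had an unadjusted p under 0.05. Arrays with the same replicate number did not deviate together (correlations of -0.093 to 0.086). The sources used here do not say what the numbers stand for, and such correlations cannot exclude a pairing. With a replicate block, 280 genes rose in both and 321 fell in both, and the difference passed for 0 genes (2573 at an unadjusted p under 0.05). Over the omissions of 1 array the pooled fit gave 1852 to 3814 genes that rose and 2347 to 3546 that fell, the shared rule 723 to 1242 and 790 to 981, the call in each knockout 16 to 1089 and 40 to 860, and the difference 0 to 87. The median change of all genes was -0.006, 0.089 with normexp and -0.076 with median scaling. With the scanner's own subtraction, signal over background limits 206 of the shared rises and 173 of the shared falls to a bound. For the genes whose bounds are given above, the normexp changes fell short of them.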
